A study of Mus musculus with 20 samples.

Results

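Chemokines and their receptors were examined across 5 sorted populations of mouse dorsal epidermis, as the 60 genes among the 53380 of the deposited table whose names follow the family nomenclature. A name rule picked the members: *Ccl*, *Cxcl*, *Xcl1* and *Cx3cl1* for 38 ligands, *Ccr*, *Cxcr*, *Xcr1* and *Cx3cr1* for 18 signalling receptors, and *Ackr* for 4 atypical receptors. Measured values played no part in the name rule, but the family was chosen with earlier results of these data known. Of these genes, 34 had a normalized count of at least 10 in at least 3 of the 20 libraries and could be tested, namely 19 ligands, 12 receptors and 3 atypical receptors.

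Chemokines are small secreted proteins that bind receptors coupled to inhibitory G proteins and direct the movement and positioning of leukocytes along gradients. Atypical receptors bind the same ligands without that signal, and take them up and degrade them. In skin, keratinocytes release chemokines that attract or hold T cells and Langerhans cells, and the T cells resident in mouse epidermis carry chemokine receptors acquired during their development and homing.

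The populations were sorted by surface integrin-α6, Sca1, Thy1 and CD34. Dendritic epidermal T cells (DETCs, 5 libraries) were α6-Sca1lowThy1+, hair follicle stem cells (HFSCs, 4 libraries) α6+Sca1-CD34+, and 2 keratinocyte populations α6+Sca1+, either Thy1hi or Thy1- (4 libraries each). The EYFP+ libraries (3) were Thy1hi keratinocytes that also carried EYFP after tamoxifen in *Thy1-CreERT2*;*R26-EYFP* mice. There the *Thy1* promoter drives the inducible recombinase, so labelling depends on the gene used to sort. The study's methods give wild-type C57BL/6J mice for the other populations and an age of 8 weeks. The sample labels instead give every library the genotype Thy1.2CreERT2-Rosa26-EYFP with no treatment, ages between 8 and 27 weeks that differ in every sample, and Sca1-negative EYFP+ cells. The labels and methods do not settle whether a library came from 1 mouse or from pooled mice, so p-values measure only the spread between these libraries, which may be technical. Libraries were made in a pair of batches whose membership the labels do not give. A DETC library named a or b here has a column number that matches no sample title.

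Libraries held 7781256 to 12982393 reads on genes, of which 13.1% to 41.5% lay on the ribosomal RNA gene *Rn45s*. The lowest shares were 13.1% in HFSC 4, 18.6% in Thy1- replicate 3, 20.6% in Thy1hi replicate 3 and 21.6% in DETC a. In the other HFSC libraries the share was 38.3% to 41.5%. Values are normalized counts, which are reads divided by 1 size factor per library (0.729 to 1.43), so that 1 normalized count was close to 1 read. The summed level of 7 T cell markers was 19486 to 40345 in DETCs and 118.6 to 429.4 in all other libraries. The summed level of 6 HFSC markers was 5771 to 9218 in HFSCs and at most 2131 elsewhere. All 5 basal keratinocyte markers were detected in every population, with sums of 9972 to 46131 in DETCs, 48623 to 114606 in HFSCs, 75406 to 121650 in Thy1- cells, 171225 to 228574 in Thy1hi cells and 148331 to 257322 in EYFP+ cells. DETC a stood apart from the other DETC libraries, with the lowest keratinocyte sum (9972 beside 33571 to 46131) and the highest T cell sum (40345). HFSC 4 stood apart from the other HFSC libraries, with 8 Langerhans cell markers summing to 76.4 beside 2518 to 5249 and a basal keratinocyte sum of 48623 beside 104683 to 114606. Langerhans cell sums were 1135 to 3351 in DETCs, 570.8 to 1351 in Thy1hi, 1013 to 2068 in Thy1- and 678.7 to 1276 in EYFP+ cells. Sums over fibroblast markers ran from 44.6 to 1946, over melanocyte markers from 24.3 to 271.5, over endothelial markers from 19.8 to 93.6 and over macrophage markers from 9.1 to 90.5, and the neutrophil, mast cell and erythroid lists did not exceed 26.6. The values of 3212 genes stood in other rows in Thy1- replicate 4 and were put back, and 0 of the 60 chemokine and receptor genes were among them.

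The 26 genes under the testing minimum were 19 ligands, 6 receptors and *Ackr1*. *Ackr1*, *Ccl21b* and *Ccl26* had 0 reads in every library, and the highest value of any of the 26 was 26.4 for *Cxcr3* in DETC 1. *Cxcr3*, the receptor for the interferon-induced ligands *Cxcl9*, *Cxcl10* and *Cxcl11*, had 26.4, 3.05, 12.7, 2.74 and 1.2 in the 5 DETC libraries and at most 4.85 elsewhere. *Ccl4*, an inflammatory ligand, had 11.7, 6.10, 7.91, 5.49 and 9.61 in DETCs and at most 6.59 elsewhere, where most libraries were at 0. *Ccr10*, the receptor for *Ccl27a*, had at most 3.95 in any library. Among the tested genes, 9 would fall under the minimum without 1 population: *Ccl21a*, *Ccl5*, *Xcl1*, *Ccr6*, *Ccr8* and *Ccl22* without DETCs, *Ccl7* and *Ccl28* without Thy1- cells, and *Ccl9* without any 1 of DETCs, Thy1hi or Thy1- cells. A gene tested only because it is high in 1 population is bound to differ there, as for *Ccl21a*, *Ccl5*, *Xcl1*, *Ccr6*, *Ccr8* and *Ccl7*, while *Ccl9*, *Ccl22* and *Ccl28* were not called in any comparison. Counts over the tested genes therefore describe them and support nothing further.

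The comparison of DETCs with keratinocytes asked which chemokine genes mark the T cells of the epidermis. Of the 12 tested receptors, 9 were higher in DETCs than in Thy1hi cells, 9 than in Thy1- cells and 11 than in HFSCs, and the 3 tested atypical receptors were lower than in both keratinocyte populations. Ligands divided in direction: *Xcl1*, *Ccl5* and *Ccl21a* were higher in DETCs, while *Cxcl14*, *Cxcl16* and *Ccl27a* were higher in both keratinocyte populations. Against Thy1hi cells, 12 of the 34 tested genes were higher in DETCs and 6 lower at an adjusted p under 0.05 (limma), where 19.9% of all 17204 genes tested were higher and 16.6% lower. Against Thy1- cells, 12 were higher and 11 lower, beside 18.9% and 15.2% of all genes, and against HFSCs 14 were higher and 5 lower, beside 21.2% and 18.5%. The median log2 fold change of the 12 tested receptors was 2.47 against Thy1hi cells, 2.26 against Thy1- cells and 2.61 against HFSCs, while that of all genes was -0.004, -0.091 and 0.023. The receptors *Ccr6* and *Ccr8* and the ligands *Xcl1*, *Ccl5* and *Ccl21a* in these counts passed the testing minimum only through DETCs. These 3 comparisons share the DETC libraries and are not independent of each other. In bulk libraries, fewer cells of a type and less RNA per cell cannot be told apart, and this holds for every difference given here.

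*Cxcr6*, the receptor for the membrane-bound chemokine *Cxcl16* (chromosome 9 from 123806475 to 123811760, ENSMUSG00000048521.8), had the largest receptor level. Its normalized counts were 934, 966, 876, 1323 and 611 in the 5 DETC libraries. They were 13.3, 23.7, 6.50 and 14.6 in Thy1hi cells, 6.08, 8.10, 12.6 and 13.1 in Thy1- cells and 6.93, 8.69, 9.62 and 1.40 in HFSCs, and 4.98, 4.64 and 6.94 in EYFP+ cells. Every DETC library lay far above every other library, and DETC a was the highest. The mean of 942.1 ± 254.6 (SD, n = 5) was 65.0 times that of Thy1hi cells (14.5 ± 7.08, n = 4), with a log2 fold change of 6.01 (SE 0.42, adjusted p 7.73e-10). Per kb of exon, *Cxcr6* reached 488 ± 132 in DETCs and made up 69.1% of the summed level of the 12 tested receptors there, ahead of *Cx3cr1* (45.7) and *Ccr8* (45.3).

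*Cx3cr1*, the receptor for *Cx3cl1*, had 208, 153, 191, 291 and 186 normalized counts in DETCs. In keratinocytes it ranged from 10.7 to 64.5 and in HFSCs from 12.8 to 31.5, so that again no library overlapped with DETCs. The fold of means was 5.57 over Thy1hi cells, 4.65 over Thy1- cells and 10.4 over HFSCs, with adjusted p of 0.000154, 0.000529 and 8.82e-06 (limma). *Ccr8*, a skin-homing receptor for *Ccl1* and *Ccl8*, had 109, 41.7, 50.6, 39.8 and 25.2 in DETCs and 0 to 3.47 in all other libraries. With only 2 reads in the 4 HFSC libraries together, the ratio to HFSCs was 114.2 (95% counting interval 31.3 to 948.1). Its fold of means was 38.0 over Thy1hi and 49.9 over Thy1- cells (adjusted p 3.68e-06 and 1.71e-06). *Ccr8* passed the testing minimum only through DETCs, so these p-values add no support. *Ccr4*, another receptor linked to skin homing that binds *Ccl17* and *Ccl22*, was measurable everywhere. It had 140, 125, 94.9, 113 and 119 in DETCs, against 23.7 to 62.1 in Thy1hi cells, 25.5 to 48.7 in Thy1- cells and 10.9 to 68.0 in HFSCs (log2 fold change 1.60, 1.70 and 1.87, adjusted p 0.0036, 0.00254 and 0.00098). *Ccr4* was the leading receptor per kb in Thy1hi cells, Thy1- cells and HFSCs, at 13.2, 11.8 and 12.4, beside 38.2 in DETCs.

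*Ccr2*, *Ccr6*, *Ccr7* and *Cxcr4* were also higher in DETCs in all 3 comparisons. *Ccr2*, which binds *Ccl2* and *Ccl7*, had 66.5, 46.8, 36.4, 67.2 and 34.8 in DETCs and 0 to 25.4 elsewhere (fold of means 3.61, 5.69 and 37.9 over Thy1hi cells, Thy1- cells and HFSCs). Without Thy1hi replicate 3 its difference from Thy1hi cells had a log2 fold change of 1.53 and was not called (adjusted p 0.081). *Ccr7*, the receptor of the lymph node chemokines *Ccl19* and *Ccl21a*, had 45.01, 52.9, 26.9, 49.4 and 67.3 in DETCs and at most 22.8 elsewhere. *Ccr6*, the receptor for *Ccl20*, spanned 6.0 to 35.2 in DETCs and 0 to 5.35 in all others. *Cxcr4*, the receptor for *Cxcl12*, was the most uneven of these, with 130 in DETC 1 and 22.4 to 56.1 in the other 4. Its call against HFSCs (log2 fold change 1.83, SE 0.71, adjusted p 0.0452) was lost when any 1 of DETC 1, DETC 3, DETC a or the 4 HFSC libraries was left out (adjusted p 0.0525 to 0.118), and its call against Thy1- cells (log2 fold change 2.14, adjusted p 0.0233) was lost without DETC 1 (0.067) or Thy1- replicate 4 (0.0637). With a pseudocount of 0.1 in place of 1, the calls of *Cxcr4* against Thy1- cells and HFSCs, of *Ccr2* against Thy1hi and Thy1- cells, of *Ccr6* against Thy1hi cells and of *Ccr7* against Thy1- cells were lost (adjusted p 0.0641 to 0.163). For the genes higher in DETCs that are also used by Langerhans cells, such as *Ccr2*, *Ccr6* and *Ccr7*, the Langerhans cell marker sum was at least 2518 in HFSC 1 to 3 and 1135 to 3351 in DETCs. In those 3 HFSC libraries *Ccr2* was at most 4.62, *Ccr6* at most 5.35 and *Ccr7* at most 22.8. The part of Langerhans cells in the levels of these receptors was not tested.

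**Figure D1:**
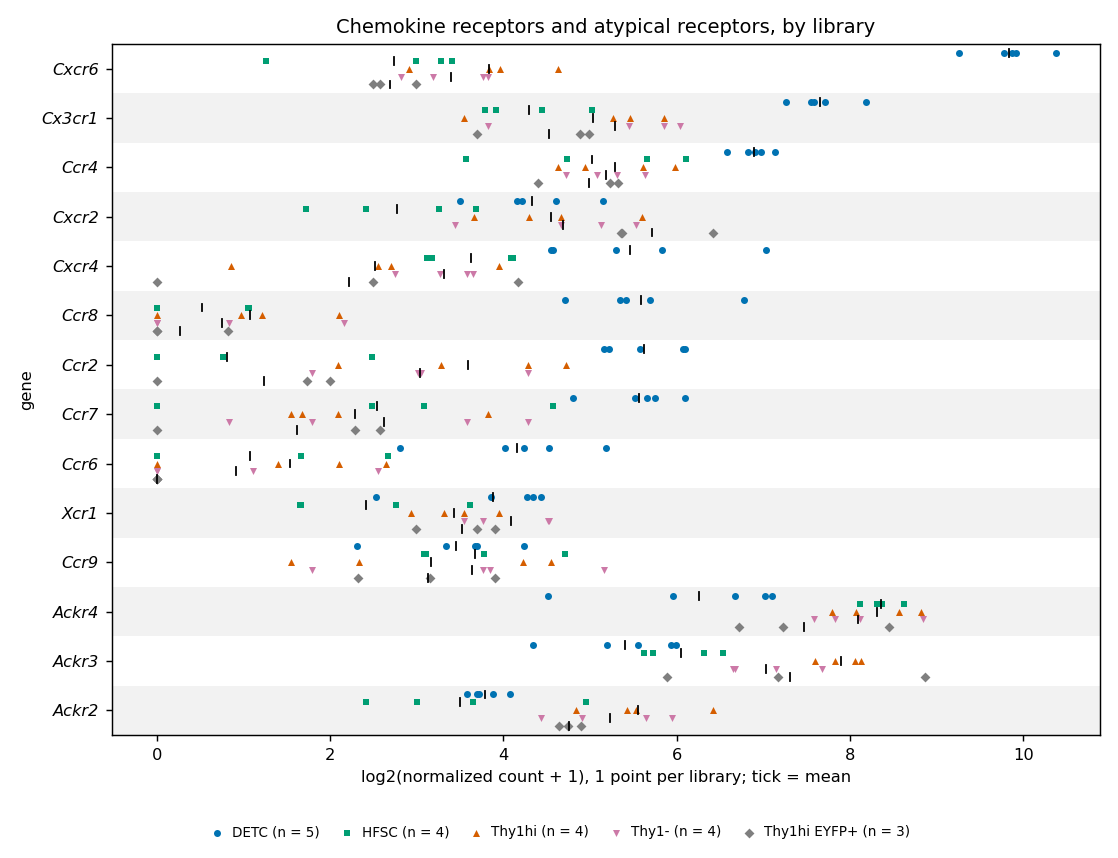
Normalized counts of 11 tested receptors and 3 tested atypical receptors, as log2(value + 1) on the horizontal axis, with 1 point per library, symbols for the 5 populations and a tick at each population mean. The DETC points lie to the right of all others for *Cxcr6*, *Cx3cr1*, *Ccr4*, *Cxcr4*, *Ccr8*, *Ccr2*, *Ccr7* and *Ccr6*, overlap with others for *Cxcr2*, *Xcr1* and *Ccr9*, and lie to the left of the Thy1hi and Thy1- points for the atypical receptors.

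*Cxcr2*, *Xcr1* and *Ccr9* did not separate DETCs from keratinocytes. *Cxcr2*, the receptor for neutrophil-attracting ligands such as *Cxcl1* and *Cxcl2*, had 10.3 to 34.6 in DETCs, 11.6 to 47.4 in Thy1hi, 9.84 to 45.1 in Thy1- and 39.9 to 84.2 in EYFP+ cells, beside 2.31 to 11.9 in HFSCs. DETCs exceeded HFSCs in *Cxcr2* (log2 fold change 1.55, adjusted p 0.0178) and in *Xcr1*, the receptor for *Xcl1* (1.46, adjusted p 0.0194), although the libraries overlapped for both. *Cxcr2* lost its call without DETC 2 (adjusted p 0.0502) or HFSC 1 (0.0805), and *Xcr1* without HFSC 2 (0.0693) or HFSC 3 (0.0754). *Ccr9*, a receptor known for homing to the gut, was not called in any comparison, with 1.94 to 34.7 over all libraries, and 21.5% of its exon bases overlap other genes.

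Among ligands, *Xcl1* was the counterpart of *Cxcr6* in its distribution. *Xcl1*, which T and natural killer cells secrete to attract cross-presenting dendritic cells, had 303, 253, 219, 239 and 115 normalized counts in DETCs. All other libraries had 0 to 6.52, including 0 in the 3 EYFP+ libraries. The fold of means was 93.3 over Thy1hi cells, 83.3 over Thy1- cells and 80.6 over HFSCs (log2 fold change 6.24, 5.96 and 6.03, SE 0.52, adjusted p 8.05e-09, 1.47e-08 and 1.26e-08). As *Xcl1* passed the testing minimum only through DETCs, it was bound to differ there, and these p-values add no support. Per kb of exon *Xcl1* was at 432 ± 133 in DETCs, where it made up 48.7% of the summed level of the tested ligands. Part of its exons, 18.7%, overlaps *Gm20743* on the other strand, and whether counting used the strand is not given in the sources used here. *Ccl5*, which T cells secrete, had 46.0, 19.3, 17.4, 6.86 and 13.2 in DETCs and at most 5.98 elsewhere. The 4 Thy1hi libraries held 2 reads in all, for a ratio of 42.3 (95% counting interval 11.4 to 353.5). The 4 Thy1- libraries held 3 reads, as did the 4 HFSC libraries, for ratios of 29.9 (9.97 to 147.6) and 29.8 (9.91 to 146.7). *Ccl21a*, a ligand of *Ccr7*, had 15.7, 14.2, 1.58, 11.0 and 10.8 in DETCs and 0 reads in all 15 other libraries. Against a floor of 3 reads over the 4 libraries of a group it was at least 13.9-fold higher than in Thy1hi cells, at least 14.8-fold higher than in Thy1- cells and at least 14.7-fold higher than in HFSCs. Of the stretches of 100 bases in its transcript, 50.3% also occur in near-identical copies such as *Ccl21b*, so that reads may be shared between them.

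Promoters are shown for *Cxcr6* and *Xcl1*, which had the highest receptor and ligand level per kb in DETCs, and for *Cx3cr1*, which came next among the receptors. Each run gives the 250 bases before the start of the RefSeq transcript (build GRCm38.p6), 5′ to 3′ on the strand of the gene. Capitals mark the core letters TGTGGT bound by RUNX factors, or their reverse complement, where they occur.
Cxcr6 (chr9:123806227-123806476, plus strand): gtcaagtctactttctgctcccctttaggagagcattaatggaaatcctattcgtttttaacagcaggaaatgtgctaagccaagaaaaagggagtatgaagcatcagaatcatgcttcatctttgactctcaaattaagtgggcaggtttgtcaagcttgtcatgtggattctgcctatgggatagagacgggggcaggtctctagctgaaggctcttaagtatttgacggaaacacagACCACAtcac
Xcl1 (chr1:164935523-164935772, minus strand): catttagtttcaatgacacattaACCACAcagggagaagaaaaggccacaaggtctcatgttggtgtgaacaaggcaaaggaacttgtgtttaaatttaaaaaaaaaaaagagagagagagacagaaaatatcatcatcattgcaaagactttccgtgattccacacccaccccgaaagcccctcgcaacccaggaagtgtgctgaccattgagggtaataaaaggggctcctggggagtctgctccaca
Cx3cr1 (chr9:120068297-120068546, minus strand, inside the longer gene model of the table): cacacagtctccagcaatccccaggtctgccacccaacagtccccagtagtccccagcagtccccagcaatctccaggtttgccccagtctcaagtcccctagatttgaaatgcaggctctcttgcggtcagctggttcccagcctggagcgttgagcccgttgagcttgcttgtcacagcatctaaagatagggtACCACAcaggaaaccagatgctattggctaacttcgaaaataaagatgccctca
The letters TGTGGT, searched on both strands, began 10 bases before the start at *Cxcr6*, 227 before it at *Xcl1* and 54 before it at *Cx3cr1*. Of the 12 genes higher in DETCs than in Thy1hi cells, 9 had a promoter entry and these 3 held the letters. Across the family they occurred in 10 of 52 promoters (19.2%), beside 14.0% of all 32851 promoters of this length in the RefSeq table. The match is a description of the sequence and not of binding.

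The genes lower in DETCs than in keratinocytes were the 3 tested atypical receptors and a set of ligands. *Ackr3*, which scavenges *Cxcl12*, had 46.0, 35.6, 62.5, 19.2 and 60.1 in DETCs. It had 266, 192, 279 and 225 in Thy1hi cells and 99.7, 100.7, 140 and 203 in Thy1- cells, so that no library of either population reached down to the DETC range. The mean was 5.39 times higher in Thy1hi cells (log2 fold change -2.50 for DETCs minus Thy1hi cells, SE 0.44, adjusted p 0.000117) and 3.05 times higher in Thy1- cells (adjusted p 0.00603). *Ackr4*, which scavenges *Ccl19*, *Ccl21a* and *Ccl25*, had 136, 61.0, 129, 22.0 and 101 in DETCs and 191 to 459 in both keratinocyte populations and HFSCs. It was 3.67 times higher in Thy1hi cells, 3.21 times in Thy1- cells and 3.67 times in HFSCs (adjusted p 0.000737, 0.00229 and 0.000612), and 8.90% of its exon bases overlap *Acad11* on the other strand. *Ackr2*, which scavenges inflammatory CC chemokines, was 10.98 to 15.8 in DETCs, 27.6 to 84.4 in Thy1hi and 20.7 to 60.7 in Thy1- cells (adjusted p 0.003 and 0.014). The second of these calls ended when Thy1- replicate 4 was left out (adjusted p 0.058). Against HFSCs, *Ackr3* and *Ackr2* had log2 fold changes of -0.65 and 0.29 and were not called (adjusted p 0.248 and 0.629).

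*Cxcl16*, the ligand of *Cxcr6*, had its lowest mean in DETCs and its highest in Thy1hi and Thy1- cells. Thy1hi cells had 1098, 1399, 1408 and 901 normalized counts and Thy1- cells 1514, 1483, 1588 and 952.5. EYFP+ cells had 457, 850 and 843, below every Thy1hi library, but were not called against Thy1hi cells (log2 fold change -0.78, 95% interval -1.89 to 0.34). DETCs had 324, 523, 502, 110 and 795, which was lower than either keratinocyte population (2.67 and 3.07 times, adjusted p 0.00815 and 0.00408). HFSCs had 539, 849, 808 and 167, and DETCs did not differ from them by a called amount (log2 fold change -0.41, 95% interval -1.39 to 0.57). When replicate numbers entered as a block, pairing DETC and HFSC replicates 1 to 3 and dropping DETC a, DETC b and HFSC 4, *Cxcl16* was called against HFSCs (log2 fold change -0.71, adjusted p 0.000859). That block brought the count against HFSCs to 14 higher and 6 lower, beside 22.6% and 19.6% of all genes. It changed no other call there. The deviations of same-numbered DETC and HFSC libraries correlated at 0.17 to 0.333, within the range of other pairs (-0.25 to 0.371). Of the exon bases of *Cxcl16*, 18.3% overlap *Zmynd15* on the other strand. *Ccl27a*, the keratinocyte chemokine that binds *Ccr10*, was 28.8 to 112 in DETCs, 185 to 333 in Thy1hi cells, 260 to 640.5 in Thy1- cells and 151 to 331 in HFSCs, 3.17, 5.74 and 3.26 times the DETC mean (adjusted p 0.00046, 7.15e-06 and 0.000404). Of its transcript, 26.5% in stretches of 100 bases recurs in copies such as *Ccl27b*.

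Against Thy1- cells alone, DETCs were also lower in *Ccl2*, *Ccl7*, *Cxcl9* and *Cxcl10*, with the adjusted p between 0.000659 and 0.0111. Of these, *Ccl7* passed the testing minimum only through Thy1- cells. *Cxcl12* was lower in DETCs than in Thy1- cells (log2 fold change -1.31, adjusted p 0.000243) and HFSCs (-1.42, adjusted p 8.12e-05), and in DETCs and Thy1hi cells it was at 199.8 ± 39.4 and 168.1 ± 34.6 (log2 fold change 0.25, 95% interval -0.25 to 0.75). *Cx3cl1*, the ligand of *Cx3cr1*, was lower in DETCs than in HFSCs (47.5 ± 22.3 against 109.4 ± 39.1, adjusted p 0.023), but the call was lost without DETC 2, DETC a, HFSC 1, HFSC 2 or HFSC 3 (adjusted p 0.0512 to 0.0777). Among the DETC libraries themselves, DETC a differed from the rest in this set of genes. DETC a, with the lowest basal keratinocyte sum, was also the lowest DETC library for 10 of the 11 genes lower in DETCs than in either keratinocyte population, *Ccl2* being the exception. Of the 12 genes higher in DETCs, it was the highest for *Ccr2*, *Cx3cr1* and *Cxcr6* and the lowest for *Ccl5*. The remaining DETC libraries showed no common order over these genes. Their basal keratinocyte sums were 46131, 42972, 40304 and 33571 in DETC 1, DETC 3, DETC b and DETC 2. *Ackr4* had 136, 129, 101 and 61.0 in this order, and so followed the sum. *Cxcl14* had 217, 230.1, 228 and 362, highest in the library with the lowest of these sums. The median basal keratinocyte sum of DETCs was 20.4% of that of Thy1hi cells, and its part in the DETC levels of these ligands was not tested. Without DETC a, 18 and 23 genes were called against Thy1hi and Thy1- cells, the same numbers as with it, and 17 against HFSCs in place of 19.

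**Figure D2:**
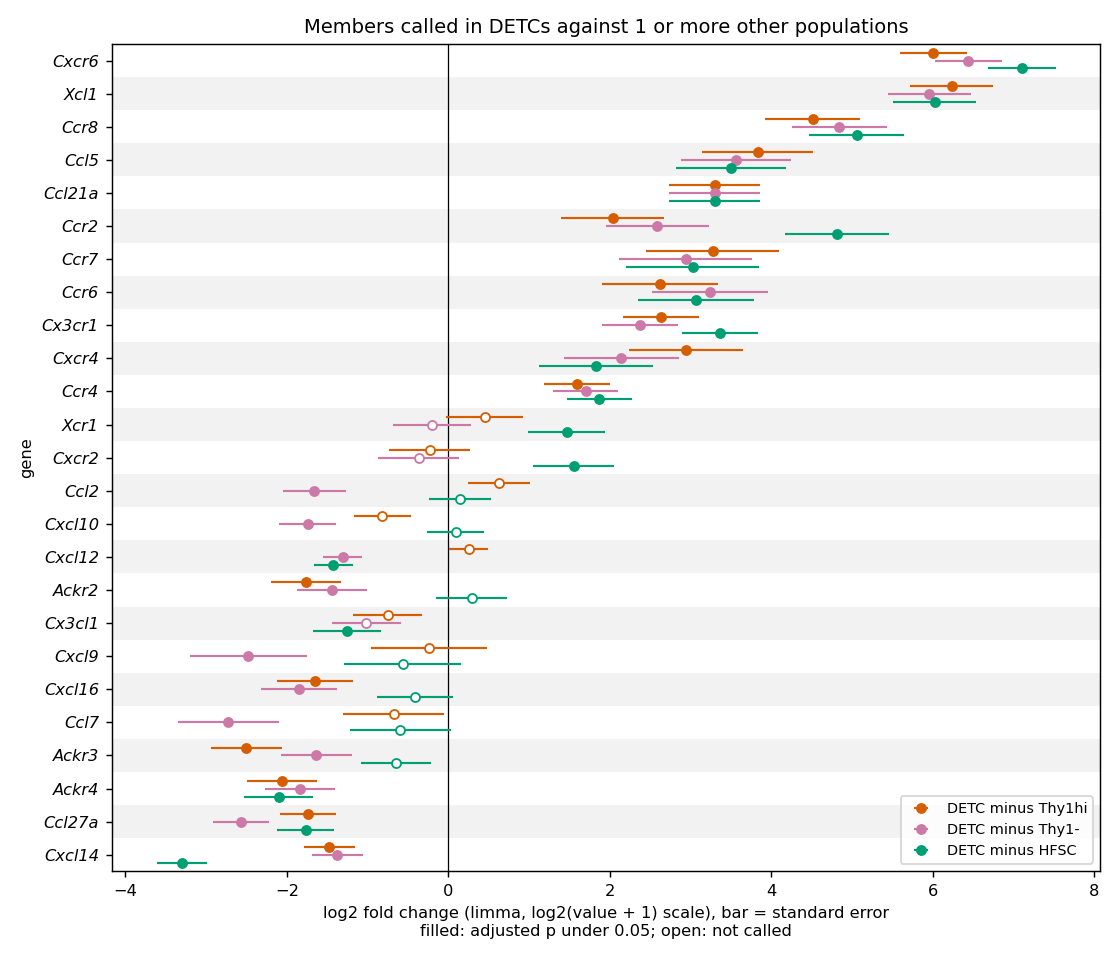
Log2 fold changes of DETCs minus each other population (horizontal axis, limma, log2(value + 1) scale) with standard errors, for the plotted genes of the family called in 1 or more of these comparisons, ordered by their mean. Filled points had an adjusted p under 0.05. *Cxcr6* and *Xcl1* head the plot at 5.96 to 7.10, and *Ackr4*, *Ccl27a* and *Cxcl14* lie below 0 with filled points in all 3 comparisons.

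Genes that carry the signal of chemokine receptors inside the cell were followed with a list of 40 genes found in the table. Against Thy1hi cells, 29 were higher in DETCs and 2 lower, against Thy1- cells 32 and 2, and against HFSCs 31 and 2. The shares over all genes were 19.9% and 16.6%, 18.9% and 15.2%, and 21.2% and 18.5% in the same order. The median log2 fold change of the list was 1.87, 1.86 and 2.25, beside -0.004, -0.091 and 0.023 for all genes. The list holds leukocyte genes, so a general difference between leukocytes and keratinocytes was not separated from chemokine receptor signalling. *Dock2*, the exchange factor that drives Rac activation in migrating leukocytes, had 1267 ± 346.9 in DETCs and 36.7 ± 14.9 in Thy1hi cells (log2 fold change 5.13, adjusted p 3.71e-08). *Rgs1*, which shortens the G protein signal of chemokine receptors, had 18230 ± 9039 and 166.4 ± 71.8 (6.79, adjusted p 1.96e-06). The inhibitory G protein subunit most abundant in leukocytes, *Gnai2*, was at 3327 ± 1163 and 994.4 ± 189.2 (1.70, adjusted p 7.59e-05). The genes lower in DETCs in all 3 comparisons were *Gnai1*, a subunit of the same class (233.1 ± 98.3 against 1262 ± 51.3 in Thy1hi cells, -2.62), and the phospholipase *Plcb3* (394.4 ± 122.7 against 965.7 ± 66.5, -1.37). Between HFSCs and Thy1hi cells *Grk5* was higher and *Gnai1* and *Rassf5* lower in HFSCs, beside 6.86% and 6.51% of all genes. In the other comparisons limma called 0 of the 40. For HFSCs against Thy1- cells, 3.52% of all genes were higher and 2.56% lower, and 7 of the 40 had an unadjusted p under 0.05 (edgeR 1, DESeq2 2). For Thy1hi against Thy1- cells the shares were 0.116% and 0.221%, with 3 unadjusted (edgeR 0, DESeq2 1, block 4). For EYFP+ against Thy1hi cells they were 0.0116% and 0%, with 4 unadjusted (edgeR 0, DESeq2 0).

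Of 19 genes near the family but outside its names, 14 could be tested. *Cmklr1*, the chemerin receptor, had 146.4 ± 44.5 in DETCs and 9.12 ± 0.92 in Thy1hi cells (log2 fold change 3.82, adjusted p 6.16e-06, limma). *Gpr15*, a T cell homing receptor, had 32.7 ± 9.83 and 3.86 ± 3.87 (3.15, adjusted p 0.00112). *Ch25h*, a cholesterol hydroxylase on the way to the oxysterols sensed by *Gpr183*, was lower in DETCs (52.5 ± 25.8) than in Thy1hi (495.1 ± 223.2) and Thy1- cells (299.4 ± 144.6), with adjusted p of 0.00189 and 0.0131, and was at 48.7 ± 49.1 in HFSCs. In all, 4 of the 14 were higher and 6 lower in DETCs than in Thy1hi cells, 5 and 4 relative to Thy1- cells, and 5 and 0 relative to HFSCs, beside the same shares of all genes. Their median log2 fold changes were -0.32, -0.165 and 0.67, where those of all genes were -0.004, -0.091 and 0.023. HFSCs were lower in 3 of the 14 than Thy1hi cells and in 3 than Thy1- cells, beside 6.51% and 2.56% of all genes. Limma called 0 of the 14 between Thy1hi and Thy1- cells (2 unadjusted, edgeR 0, DESeq2 0, block 3) and 0 between EYFP+ and Thy1hi cells (4 unadjusted, edgeR 0, DESeq2 0). Of all genes, 0.116% were higher and 0.221% lower in the first comparison, and 0.0116% and 0% in the second.

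The comparison of HFSCs with keratinocytes asked whether the stem cells of the follicle differ from Thy1hi and Thy1- cells of the interfollicular epidermis in this family. HFSCs were marked by a high level of *Cxcl14* and, relative to Thy1hi cells, of *Cxcl12*. Their mean *Ackr2* was lower, with overlapping libraries and calls lost in some fits. Against Thy1hi cells, 2 of the 34 genes were higher and 4 lower, beside 6.86% and 6.51% of all genes. Against Thy1- cells, 1 was higher and 4 lower, beside 3.52% and 2.56%.

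*Cxcl14*, a chemokine made constitutively by epithelia (chromosome 13 from 56288643 to 56296551, ENSMUSG00000021508.11), had 1420, 3972, 2146 and 1510 normalized counts in HFSCs. It had 723, 601, 467 and 565 in Thy1hi cells, 694, 391, 633 and 507 in Thy1- cells and 217, 362, 230.1, 96.0 and 228 in DETCs, with 350, 396 and 409 in EYFP+ cells. HFSCs lay above Thy1hi and Thy1- cells and these above DETCs with no overlap, while EYFP+ replicate 1 lay below DETC 2. The mean of HFSCs was 3.84 times that of Thy1hi cells, 4.07 times that of Thy1- cells and 9.98 times that of DETCs (adjusted p 0.000731, 0.00115 and 5.08e-08), and DETCs were lower than Thy1hi and Thy1- cells by 2.60 and 2.45 times (adjusted p 0.000788 and 0.00173). Thy1hi and Thy1- cells differed by 0.10 on the log2 scale (95% interval -0.59 to 0.78). Per kb of exon *Cxcl14* was at 1240 ± 649 in HFSCs and made up 71.8% of the summed level of the tested ligands there, while in Thy1hi and Thy1- cells *Cxcl16* led with 398 ± 81.6 and 458 ± 96.4.

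*Cxcl12*, the ligand of *Cxcr4* and *Ackr3*, had 458, 628, 614 and 446 in HFSCs and 452, 374, 632 and 534 in Thy1- cells, but 127, 209, 178 and 158 in Thy1hi cells. HFSCs exceeded Thy1hi cells 3.19 times (log2 fold change 1.67, SE 0.25, adjusted p 0.000124), and against Thy1- cells the difference was 0.12 (95% interval -0.41 to 0.64). *Ackr3* ran the other way. It had 78.5, 52.1, 91.9 and 48.4 in HFSCs, below all Thy1hi libraries (log2 fold change -1.85, adjusted p 0.00975).

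The promoters of *Cxcl14* and *Cxcl12*, the ligands higher in HFSCs than in Thy1hi cells, and of *Ackr3*, the atypical receptor higher in Thy1hi cells, are given as for the T cell genes. Here capitals mark the RUNX core TGTGGT and the TATA box letters TATAAA, with both strands searched.
Cxcl14 (chr13:56296552-56296801, minus strand): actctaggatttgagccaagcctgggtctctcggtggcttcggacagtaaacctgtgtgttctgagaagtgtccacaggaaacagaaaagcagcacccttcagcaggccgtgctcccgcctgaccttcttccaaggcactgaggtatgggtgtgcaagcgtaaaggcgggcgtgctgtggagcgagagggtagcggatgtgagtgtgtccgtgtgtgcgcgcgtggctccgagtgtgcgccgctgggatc
Cxcl12 (chr6:117168285-117168534, plus strand): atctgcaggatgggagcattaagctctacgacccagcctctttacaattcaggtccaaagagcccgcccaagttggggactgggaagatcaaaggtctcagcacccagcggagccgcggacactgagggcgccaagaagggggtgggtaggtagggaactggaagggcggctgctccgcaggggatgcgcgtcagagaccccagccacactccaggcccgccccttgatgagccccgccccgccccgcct
Ackr3 (chr1:90203730-90203979, plus strand): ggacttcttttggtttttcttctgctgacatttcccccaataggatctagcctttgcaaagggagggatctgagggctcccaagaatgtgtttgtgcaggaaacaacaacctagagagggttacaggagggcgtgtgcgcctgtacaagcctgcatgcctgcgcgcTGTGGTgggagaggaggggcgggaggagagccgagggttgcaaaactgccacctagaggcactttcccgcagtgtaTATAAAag
Neither motif was found in the windows of *Cxcl14* and *Cxcl12*, and that of *Ackr3* held TATAAA 8 bases and TGTGGT 84 bases before the start. TATAAA occurred in 14 of the 52 promoters of the family (26.9%) and in 12.4% of all 32851.

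*Ackr2* was 4.34 to 29.9 in HFSCs, lower than in Thy1hi cells (log2 fold change -2.05, adjusted p 0.00478) and Thy1- cells (-1.73, adjusted p 0.0286). The second of these was lost when HFSC 1, 2 or 4 or Thy1- replicate 3 or 4 was left out (adjusted p 0.0522 to 0.0939). It was also lost in a fit of HFSCs and Thy1- cells alone (0.13). With the replicate block both calls were lost (adjusted p 0.106 and 0.158). HFSC 3 (29.9) overlapped with both keratinocyte populations, whose lowest values were 27.6 and 20.7. *Cxcr2* was lower in HFSCs than in both (adjusted p 0.0289 and 0.0344), with overlapping libraries. The first of these calls was lost without HFSC 1, HFSC 2, Thy1hi replicate 1 or Thy1hi replicate 2 (adjusted p 0.0632 to 0.112), and the second without HFSC 1, HFSC 2 or Thy1- replicate 1, 2 or 3 (0.0679 to 0.118). *Ccr2* was 0 to 4.62 in HFSCs and 3.25 to 25.4 in Thy1hi cells (adjusted p 0.00849). *Ccl2* and *Cxcl10* were lower in HFSCs than in Thy1- cells, with 18.1 ± 6.62 against 64.3 ± 20.5 and 18.3 ± 7.73 against 62.6 ± 10.7 (adjusted p 0.0108 and 0.00516), and all libraries were apart. *Cxcl16* had a log2 fold change of -1.24 (95% interval -2.27 to -0.21) against Thy1hi and -1.44 (-2.47 to -0.41) against Thy1- cells and was not called (adjusted p 0.104 and 0.0859). HFSC 4, at 167 where the other 3 had 539 to 849, also had 0 of the neutrophil-attracting ligands *Cxcl1* and *Cxcl2*. Without HFSC 4, 6 and 5 genes were called against Thy1hi and Thy1- cells, the same numbers as with it, of which 4 against Thy1- cells were shared, and against DETCs 19, of which 18 were shared.

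**Figure D3:**
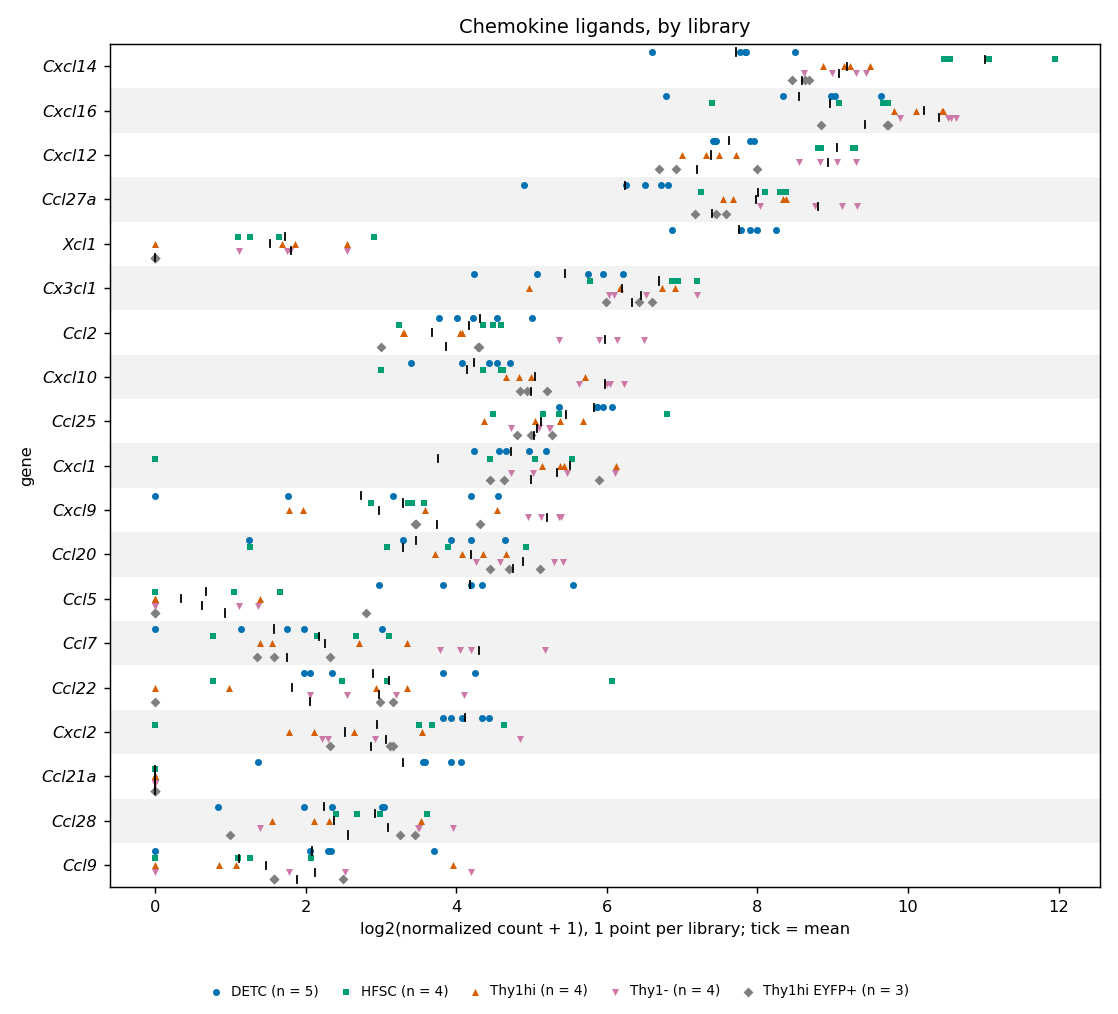
Normalized counts of the 19 tested ligands, as log2(value + 1) on the horizontal axis, with 1 point per library and a tick at each population mean. *Cxcl14* separates HFSCs, the Thy1hi and Thy1- cells and DETCs from right to left, *Xcl1*, *Ccl5* and *Ccl21a* lie apart in DETCs, and *Ccl2*, *Ccl7* and *Cxcl9* lie highest in Thy1- cells.

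The comparison of Thy1hi with Thy1- keratinocytes asked how the 2 populations of the interfollicular epidermis differ. *Cxcl12* and *Ccl2* were lower in Thy1hi cells, and 0 of the 34 genes were higher, beside 0.221% of all genes lower and 0.116% higher. *Ccl2*, a monocyte chemoattractant, had 8.83, 15.8, 8.94 and 15.5 in Thy1hi cells and 58.4, 69.4, 89.1 and 40.2 in Thy1- cells, a 5.24-fold difference of means with no overlap (log2 fold change -2.29, SE 0.41, adjusted p 0.0182, exact permutation p 0.0286, the smallest that 4 against 4 libraries can give). *Cxcl12*, with the values given above, was 2.96 times higher in Thy1- cells (log2 fold change -1.56, SE 0.25, adjusted p 0.00753). Leaving out Thy1- replicate 3 ended both calls (adjusted p 0.106 and 0.051), and that of *Ccl2* also ended without Thy1hi replicate 1, Thy1hi replicate 3 or Thy1- replicate 2 (0.0897, 0.0743 and 0.0597).

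Libraries of Thy1hi and Thy1- cells with the same replicate number deviated together, and a fit blocked on this number called 5 genes lower and 1 higher in Thy1hi cells, beside 3.19% and 3.42% of all genes. The added genes were *Ccl7*, *Cxcl9* and *Cxcl10*, lower in Thy1hi cells, and *Ackr3*, higher. *Ccl7*, which shares *Ccr2* with *Ccl2*, had 5.52, 9.22, 1.63 and 1.94 in Thy1hi cells and 35.3, 12.7, 17.4 and 15.6 in Thy1- cells (adjusted p 0.0275 with the block and 0.293 without). It passed the testing minimum only through Thy1- cells. *Cxcl9* had 11.0, 22.4, 2.44 and 2.91 against 40.1, 30.1, 33.9 and 41.0 (0.0242 and 0.344). *Cxcl10* had 27.6, 51.4, 30.9 and 24.3 against 74.2, 64.8, 63.1 and 48.4 (0.0471 and 0.517). For each of these ligands the Thy1- library was higher in 4 of 4 pairs. *Ackr3*, the scavenger of *Cxcl12*, was higher in the Thy1hi library in 4 of 4 pairs (0.0224 and 0.763). DETCs, HFSCs and EYFP+ cells had at most 31.2 of *Ccl2* in any library, below every Thy1- library.

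**Figure D4:**
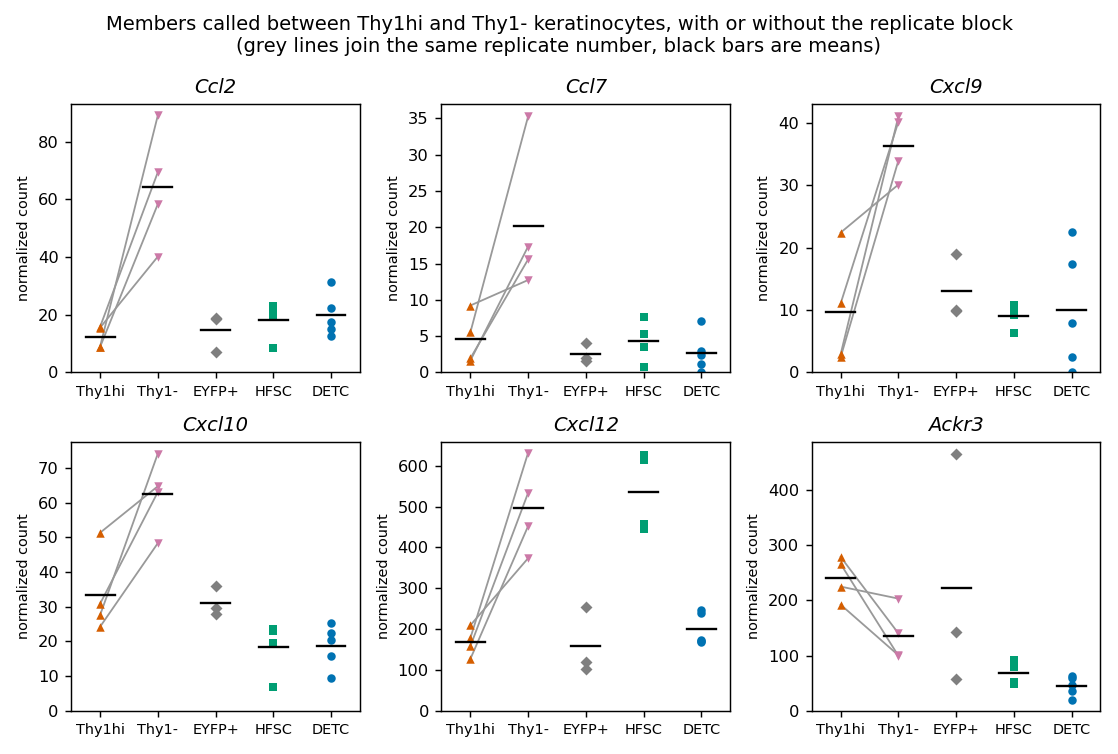
Normalized counts (vertical axes, from 0) of the 6 genes called between Thy1hi and Thy1- cells with or without the replicate block, with 1 point per library, black bars at population means and grey lines that join libraries of the same replicate number. Every line rises from Thy1hi to Thy1- cells for the 5 ligands and falls for *Ackr3*, where EYFP+ libraries spread from 58.1 to 465.

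Among the 12 tested receptors, limma called 0 between Thy1hi and Thy1- cells, and 0 had an unadjusted p under 0.05 (edgeR 0, DESeq2 0, block 0). Their log2 fold changes ran from -0.80 to 0.62, with 95% intervals that reached from -2.36 to 2.20, so that these libraries do not bound the differences closely. *Ccl27a* was 260.7 ± 77.5 in Thy1hi and 471.7 ± 164.9 in Thy1- cells (adjusted p 0.603). Langerhans cell markers were 570.8 to 1351 in Thy1hi and 1013 to 2068 in Thy1- cells, macrophage or monocyte markers 21.3 to 35.6 and 28.4 to 56.7, and fibroblast markers 186.1 to 1946 and 123.0 to 215.3. Hair follicle stem cell markers were 682.3 to 986.6 in Thy1hi and 1906 to 2131 in Thy1- cells, without overlap. *Sox9* made up most of these sums, with means of 713.6 and 1780. *Sox9* and *Gli1* did not overlap between these populations, while *Cd34*, *Lgr5*, *Lhx2* and *Tbx1* did. The sums of 4 suprabasal keratinocyte markers were 7946 to 24451 in Thy1hi and 24268 to 36933 in Thy1- cells. In HFSCs, where *Cxcl12* was also high, these suprabasal sums were 21231 to 44608. In EYFP+ cells, where *Cxcl12* was only 102.67 to 254.67, they were 14527 to 53020. Of the 6 macrophage or monocyte markers, 1 reached a mean of 10 in Thy1hi cells and 1 in Thy1- cells. The part of the cell types with these markers in the levels of *Ccl2*, *Ccl7*, *Cxcl9*, *Cxcl10* and *Cxcl12* was not tested.

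EYFP+ cells were compared with Thy1hi cells to see whether lineage-labelled and sorted Thy1hi keratinocytes differ. By limma 0 of the 34 genes were called, beside 0.0116% of all genes higher and 0% lower in EYFP+ cells, and 3 had an unadjusted p under 0.05 (edgeR 0, DESeq2 0 after adjustment). These were *Ccr2* (2.99, 2.32 and 0 against 3.25 to 25.4, log2 fold change -2.35, adjusted p 0.3), *Xcl1* (0 in the 3 EYFP+ libraries against 0 to 4.85, adjusted p 0.437) and *Cxcr6* (4.64 to 6.94 against 6.50 to 23.7, adjusted p 0.484). The 95% intervals of the 34 log2 fold changes had half-widths of 0.56 to 2.24, and 3 of these intervals lay wholly between -1 and 1. The summed T cell markers were 118.6 to 212.1 in EYFP+ and 234.1 to 429.4 in Thy1hi cells, and their part in these receptor levels was not tested. Mouse genotype, tamoxifen and the EYFP sort cannot be told apart in this comparison.

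Ligands and receptors known to pair were placed side by side per kb of exon, counting every annotated exon of a gene. The transcripts made can be shorter, so levels of different genes compare only roughly. *Cxcl16* was at 398 ± 81.6 in Thy1hi, 458 ± 96.4 in Thy1- and 237 ± 74.5 in EYFP+ cells, 196 ± 104 in HFSCs and 149 ± 84.2 in DETCs. Its receptor *Cxcr6* was at 488 ± 132 in DETCs and at most 7.51 ± 3.67 elsewhere. *Cx3cl1* was at 12.1 ± 5.67 in DETCs and 20.7 to 27.8 in the other populations, and *Cx3cr1* at 45.7 ± 11.5 in DETCs and 4.40 to 9.81 elsewhere. For *Cxcl12* and *Cxcr4* the order of populations was different, with the ligand highest in HFSCs (65.6 ± 11.9) and Thy1- cells (60.9 ± 13.5) and the receptor highest in DETCs (29.9 ± 24.8). In these 3 pairs the mean of the receptor was highest in DETCs and that of the ligand in another population. In the pair of *Xcl1* and *Xcr1* the ligand was at 432 ± 133 in DETCs and the receptor at 1.19 to 3.77 in all 5 populations. *Ccl27a* reached 198 ± 69.4 in Thy1- cells and 113 ± 34.2 in HFSCs, with its receptor *Ccr10* at or under 0.97 in every population. *Ccl20* was at 21.3 ± 8.09 in Thy1- and 9.22 ± 6.03 in DETCs, and *Ccr6* at 8.32 ± 4.61 in DETCs and at most 1.10 ± 0.97 elsewhere.

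**Figure D5:**
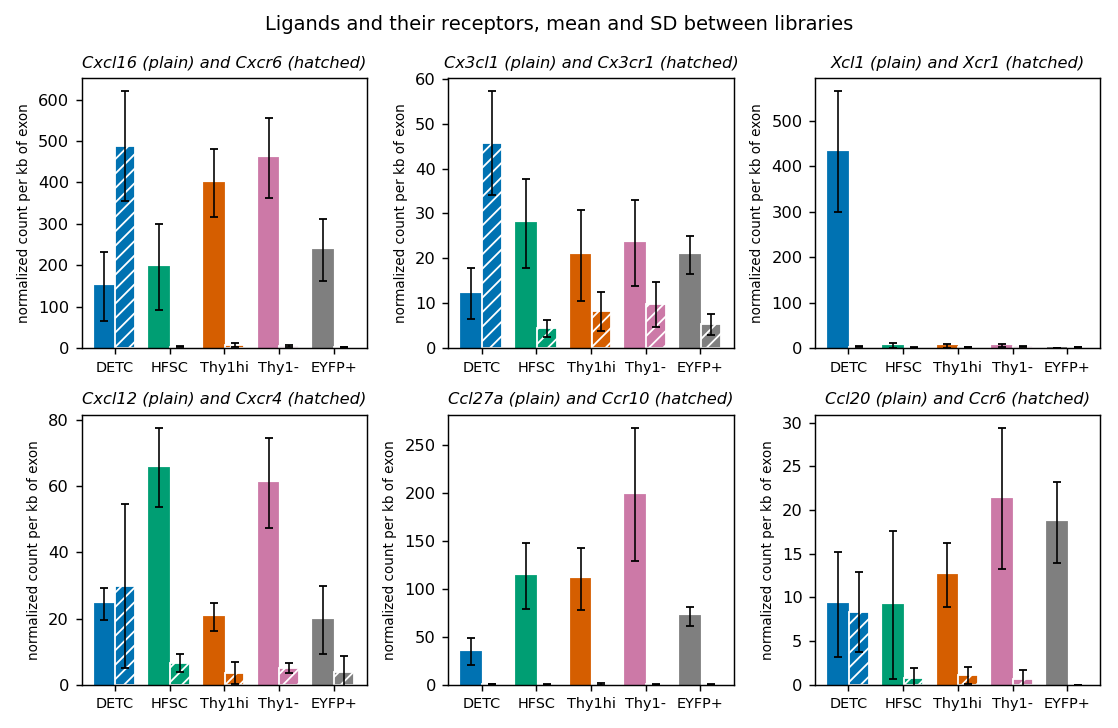
Mean and SD between libraries of the normalized count per kb of exon (vertical axes, from 0) for 6 ligands (plain bars) and a known receptor of each (hatched bars) in the 5 populations. *Cxcr6*, *Cx3cr1*, *Cxcr4* and *Ccr6* are highest in DETCs while *Cxcl16*, *Cx3cl1*, *Cxcl12* and *Ccl20* are highest elsewhere, *Xcl1* is high in DETCs, and *Ccr10* stays near 0.

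The 7 tested ligands not yet described were not called by limma in any comparison. *Ccl25*, known from thymus and gut, was at 40.1 to 65.9 in DETCs, 25.4 to 50.5 in both keratinocyte populations apart from 19.8 in Thy1hi replicate 2, and 110.7 in HFSC 4. *Cxcl1* was at 17.8 to 35.6 in DETCs and 25.5 to 68.5 in keratinocytes. *Ccl20*, an attractant of *Ccr6*-bearing cells, was at 1.37 to 24.0 in DETCs and 12.1 to 41.8 in keratinocytes. *Cxcl2*, like *Cxcl1* a ligand of *Cxcr2*, was at 13.2 to 20.6 in DETCs, above the 2.44 to 10.7 of Thy1hi cells in every library but not called (adjusted p 0.0904). *Ccl22*, *Ccl28* and *Ccl9* had a mean of at most 19.8 in any population, and *Ccl22* reached 66.3 in HFSC 2, the library with the highest Langerhans cell sum (5249).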

How the data were processed

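RNA of 5 sorted populations was sequenced, with STAR alignment to mm10, featureCounts counting per Ensembl gene and DESeq2 normalization by the authors (the versions of STAR and featureCounts are not given in the sources used here). The sources name 2 kinds of library kit without saying which library had which. The deposited values are a signal, namely counts divided by a size factor per library and rounded. Whole reads were recovered within 0.0051 normalized counts for 100% of the low values checked in each library. In Thy1- replicate 4 the values of 3212 genes stood in another row order and were moved back to their genes, which brought the correlation with the other Thy1- libraries over 1153 genes from 0.061 to 0.932 (across genes, which are not independent replicates). Tests covered the 17204 genes that reached 10 normalized counts in 3 or more libraries.

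Population means were compared with limma 3.58.1 in R 4.3.3 (lmFit, eBayes with trend) on log2(value + 1), with 1 mean per population over all 20 libraries, two-sided, adjusted by Benjamini-Hochberg over all tested genes at 0.05, in 7 comparisons. The pseudocount makes fold changes of low genes too small. Folds of means are of normalized counts, and intervals of log2 fold changes used the moderated 20.3 degrees of freedom. Counting intervals and the floor of 3 reads cover counting error only. Alternatives were edgeR 4.0.16 and DESeq2 1.42.0 on the recovered reads, pseudocounts of 0.1 and 10, no filter, rescaling without *Rn45s*, the compared populations alone, the deposited row order, a replicate block and leaving out each library. The fits were tested on simulated data. Same-numbered replicates had deviations correlated over 0.1 in every pair between Thy1hi and Thy1- cells (4 pairs, r 0.293 to 0.716 across genes). This also held between DETCs and HFSCs (3 pairs, 0.17 to 0.333), and not in the other 5 comparisons. Pairs with different numbers ran from -0.651 to 0.514 (12 pairs) and from -0.25 to 0.371 (9 pairs), so they overlapped with same-numbered pairs. The labels do not say whether a shared number means a shared mouse or batch. Levels per kb used exon lengths of GENCODE M21, which held all 60 genes. The length was the union of all annotated exons of a gene, and shares and rankings per kb depend on this choice. Promoters came from RefSeq (GRCm38.p6), which matched 45 of the 60 genes and 28 of the 34 tested. The family members, gene lists and tests were chosen with earlier results of these data known. Called genes of the family were named, with full statistics for those of largest change, except 1 gene that stays in the counts and is not reported here. Figures were drawn with matplotlib 3.10.9.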

Additional observations from a re-analysis of the deposited data

Results flagged for a closer look

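In the populations with 4 or 5 libraries, 7 of 133 groups of values held 1 library farther from the others than Dixon's test allows at 95%, and chance gives about 1 in 20. *Ccl22* in HFSC 2 had a normalized count of 66.25 where the next was 7.48. *Ccl5* in Thy1hi replicate 3 had 1.63 where the others had 0. *Ccl9* in Thy1hi replicate 2 had 14.49, with the next at 1.1, and *Ccr7* in the same library had 13.17, with the next at 3.25. *Ccr2* in HFSC 1 had 4.62, with the next at 0.7. *Cxcl2* in Thy1- replicate 2 had 27.77, with the next at 6.56. *Cxcl16* in Thy1- replicate 4 was low, at 952.52 where the next was 1483.31.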

How the results depend on the processing

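Of 73 calls of family members in the 7 comparisons, 0 changed direction under any alternative run. Calls were lost in 6 of 73 with a pseudocount of 0.1, 1 with 10, 3 without the filter, 4 in fits of the compared populations alone, 1 with the deposited row order, 7 with the replicate block and 39 of 644 when 1 library was left out, and in 0 with rescaling, edgeR or DESeq2. The count between HFSCs and Thy1- cells, 5, was 8 after rescaling without *Rn45s*, 10 with DESeq2 and 0 with the replicate block (13 at an unadjusted p under 0.05), where same-numbered libraries did not deviate together, and the cause was not tested. It was 3 to 7 with 1 library left out, the lowest without Thy1- replicate 3. Between Thy1hi and Thy1- cells the count of 2 became 6 with the block and 0 to 2 with 1 library left out, with 0 without Thy1- replicate 3 and 1 without Thy1hi replicate 1, Thy1hi replicate 3 or Thy1- replicate 2. With 1 library left out it was 17 to 19 for DETCs against Thy1hi cells, 21 to 23 against Thy1- cells, 16 to 19 against HFSCs, 5 to 6 for HFSCs against Thy1hi cells, and 0 throughout for EYFP+ against Thy1hi cells. In the remaining comparisons whose same-numbered libraries did not all correlate over 0.1, the block gave 19 and 25 for DETCs against Thy1hi and Thy1- cells. It gave 4 for HFSCs against Thy1hi cells and 0 for EYFP+ cells. For DETCs against HFSCs the block added *Cxcl16* and lost 0 calls. Depth limits the genes with few reads, such as *Ccl5*, *Ccl21a* and *Ccr6*, whose values outside DETCs rest on single reads.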
